A study of Rattus norvegicus with 4 samples.

Results

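The epidermal keratins are the intermediate filament proteins of the skin's outer layer, and 9 of them were followed here by gene symbol: Krt1, Krt5, Krt6a, Krt10, Krt14, Krt15, Krt16, Krt17 and Krt79. A row was found for 8 of the 9 among the 23999 genes of the count tables, and Krt6a was not analysed here. The samples were skin of rats in a wound healing model, collected on day 4, dissociated and profiled cell by cell on the droplet platform of 10x Genomics, which counts unique molecular identifiers (UMIs) per gene and cell barcode. There were 2 injected libraries, from wounds given purified migrasomes (vesicles left behind on the retraction fibres of migrating cells), and 2 uninjected libraries, from wounds given nothing. An effect of the injection itself and of the migrasomes cannot be told apart. Strain, sex, age and the number of animals are not given in the labels, and nothing says that replicates came from separate animals, so each p-value reflects only how libraries of a group differ, and that spread may be technical.

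Keratins work as pairs of a type II and a type I chain. In the basal layer, where keratinocytes divide, the pair is Krt5 (type II) with Krt14 (type I), and Krt15 is a further type I chain of basal cells and of the hair follicle bulge. As cells leave the basal layer and begin to cornify they switch to Krt1 (type II) with Krt10 (type I). At a wound edge keratinocytes turn on Krt6a, Krt16 and Krt17, which are otherwise largely kept to the hair follicle and other appendages, while Krt79 is known for the cells that line the follicle canal and its opening.

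Promoter sequence was in the RefSeq table (assembly GRCr8) for 3 of the 9 genes, 1 for each of the basal, suprabasal and follicle canal programmes, and these are shown so that their start regions can be set beside the expression patterns. Each line gives the 250 bases before the transcription start, 5′ to 3′ on the gene's strand, which is the minus strand for all 3, with motif matches in capitals. The motifs searched on both strands were the TATA box TATAAA, the AP-1 site TGANTCA and the GC box GGGCGG, and no match overlapped another.
Krt5, chr7:134730570-134730819, minus strand: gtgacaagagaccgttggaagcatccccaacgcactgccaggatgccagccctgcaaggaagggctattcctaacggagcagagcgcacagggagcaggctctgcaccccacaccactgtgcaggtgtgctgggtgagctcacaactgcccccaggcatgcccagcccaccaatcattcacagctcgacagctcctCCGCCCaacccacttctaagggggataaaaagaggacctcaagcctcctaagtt
Krt10, chr10:84839161-84839410, minus strand: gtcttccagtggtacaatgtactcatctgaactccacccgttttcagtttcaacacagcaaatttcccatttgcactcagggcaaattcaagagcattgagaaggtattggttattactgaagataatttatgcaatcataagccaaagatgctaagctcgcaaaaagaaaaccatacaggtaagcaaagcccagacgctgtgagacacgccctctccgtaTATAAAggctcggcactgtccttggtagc
Krt79, chr7:134946448-134946697, minus strand: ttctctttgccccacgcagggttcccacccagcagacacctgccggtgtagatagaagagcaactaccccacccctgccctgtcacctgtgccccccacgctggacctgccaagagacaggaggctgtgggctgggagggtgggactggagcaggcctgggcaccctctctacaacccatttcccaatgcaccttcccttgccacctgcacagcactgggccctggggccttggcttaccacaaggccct
Krt10 held a TATA box 29 bases before its start, a motif that 12.9% of 33469 promoters of the table held. Krt5 held a GC box on the reverse strand 54 bases before its start, a motif found in 30.5% of promoters. No match to these letters was found in the Krt79 window, for which the table lists 3 starts, and none of the 3 windows held TGANTCA, which 6.34% of promoters held.

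Keratinocytes were defined as barcodes with 1000 or more UMIs in which Krt5 and Krt14 together made up 0.5% or more of the UMIs. This gave 2031 and 2243 barcodes in uninjected 1 and 2 and 2091 and 1899 in injected 1 and 2, or 8264 of 33820 barcodes with 1000 or more UMIs. Their median depth was 14550 to 19375 UMIs, and the libraries held 75823418 to 105605297 UMIs in all. The share had no gap at the threshold: 1465 barcodes lay between 0.5% and 0.6%, and 1444 between 0.4% and 0.5%. Just inside it, Krt17 stood at 168, 222, 236 and 259 UMIs per 10000 (uninjected 1, uninjected 2, injected 1, injected 2, the order used throughout), and just outside it at 154, 224, 214 and 236.

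The label was checked against non-keratin genes by clustering all barcodes without any of the 47 keratin genes. Of 19 clusters, 8 carried epithelial markers such as Epcam, Perp and Dsp, and 7927 of the 8264 keratinocytes lay in them. Those clusters held 13313 barcodes, so the rule took 48.9%, 67.0%, 64.5% and 61.0% of the epithelial barcodes of the 4 libraries. A further 245 keratinocytes lay in an unnamed cluster that led with neutrophil genes and carried epithelial markers as well. Free RNA bears on the threshold, since Krt5 and Krt14 made up 0.599%, 0.586%, 0.525% and 0.733% of the UMIs of empty droplets. The empty droplets held a median of 117, 41, 39 and 6 UMIs, most in uninjected 1 and fewest in injected 2. The part of this difference in the keratin values was not tested. Of 7760 neutrophil-like barcodes, 6 passed the threshold. Between libraries, 118 of 33702 distinct barcodes were shared.

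Uninjected 1 stood apart from the other libraries before any keratin was compared. Ribosomal protein genes took 19.6% of the UMIs of its keratinocytes against 10.1%, 8.64% and 10.0%, and the median mitochondrial share was 2.77% against 5.66%, 5.19% and 4.19%. Markers of other cell types were low in keratinocytes throughout: 17 of 19 listed markers were measured, and their summed level was 0.487, 2.03, 2.11 and 3.10 UMIs per 10000, with C1qa (macrophages) and Sox10 (pigment and nerve sheath cells) at 0 in uninjected 2. This sum was higher in both injected libraries, and its part in the results was not tested.

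None of the keratins passed the test between injected and uninjected keratinocytes. UMIs were summed per library and tested over 14171 genes with edgeR's quasi-likelihood test and Benjamini-Hochberg adjustment at 0.05. Across all genes it called 0%, with 681 genes at an unadjusted p under 0.05 where 709 are expected with no difference. Of the 8 keratins 0 were called, and 1 (Krt16) had an unadjusted p under 0.05. DESeq2 called 42 genes (0.318% of 13228), of which 0 were these keratins. Normalised counts (CPM, UMIs scaled to a library total of 1000000) did not overlap between the groups for 3 (Krt15, Krt16 and Krt17) of the 6 keratins that did not choose the cells, beside 37.5% of all genes tested. Over all 8 keratins the fitted change was above 0 for 6 and below 0 for 2, with a median log2 change of 0.29. The median over all genes was -0.001. These 8 include Krt5 and Krt14, which chose the cells, so the counts and the median are a description only.

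**Figure D1:**
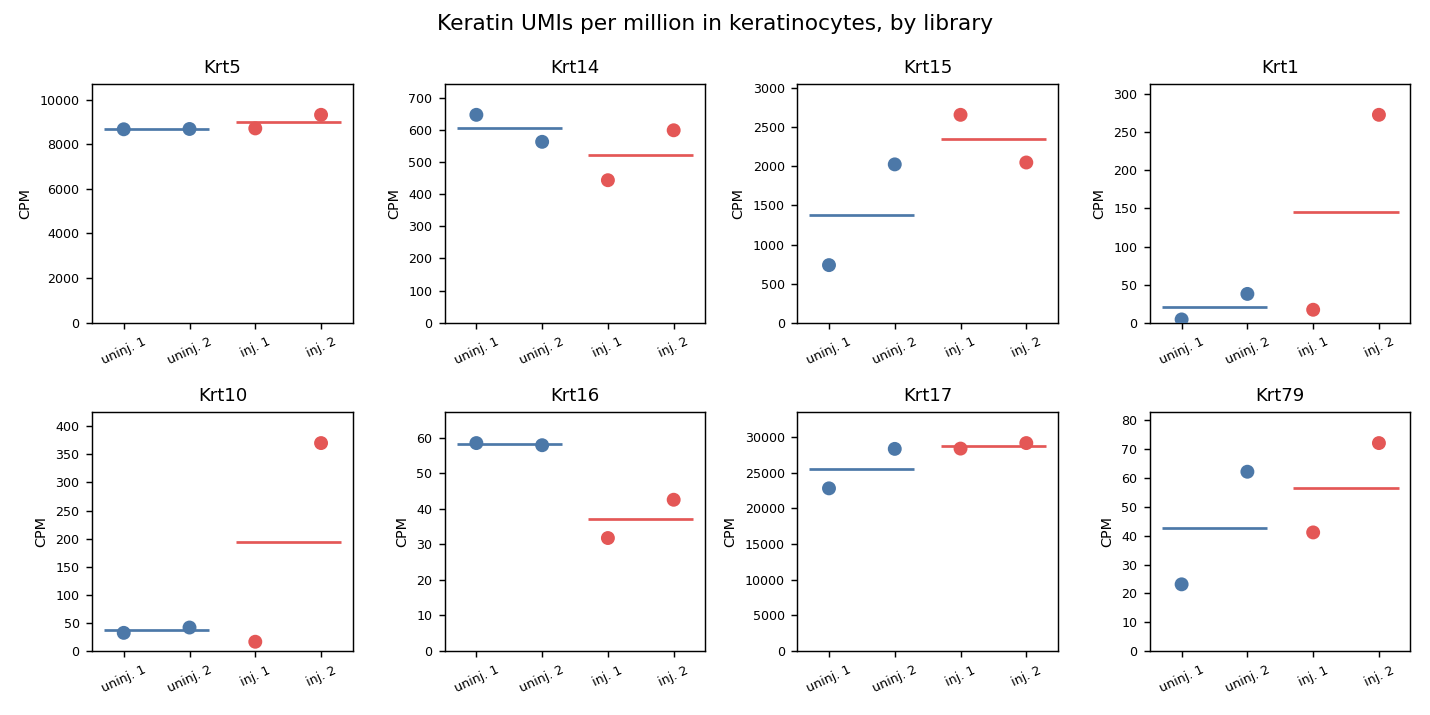
Each panel plots the CPM of 1 keratin (y axis, linear from 0) in the keratinocytes of the 4 libraries (x axis, blue uninjected, red injected), with a line at each group's mean. Krt1 and Krt10 are high in injected 2 alone, Krt15 is low in uninjected 1, and the Krt16 points of the injected libraries lie under both uninjected points.

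Krt5, the type II chain of basal cells, stood at 8669, 8683, 8708 and 9317 CPM. Krt14, its type I partner, stood at 647, 563, 444 and 599 CPM. These 2 genes chose the cells, so their fitted log2 changes of 0.06 (SE 0.34) and -0.22 (SE 0.26) are a description only. The injected libraries were both a little above the uninjected ones for Krt5, and for Krt14 the groups overlapped. Under the threshold, in the other barcodes of the epithelial clusters, Krt5 stood at 29.3, 30.9, 28.9 and 27.3 UMIs per 10000. The rule itself caps Krt5 in these barcodes, so their values and order are a description only too.

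Krt15, the chain of basal and bulge cells, stood at 737.0, 2025, 2658 and 2049 CPM. The groups did not overlap, but uninjected 2 and injected 2 were nearly equal and uninjected 1 was far below all others. The log2 change was 0.77 (SE 0.53), with an adjusted p of 0.777 by edgeR's quasi-likelihood test. Without uninjected 1 the log2 change was 0.22. Without uninjected 2 it was 1.69 with an adjusted p of 0.0425 by the same test, in a comparison that called 4.22% of all genes (0.413% as higher) and in which the lone uninjected library is assumed to vary like the injected ones. Over the other 12 alternatives that adjusted p lay between 0.725 and 1.0. In epithelial barcodes under the threshold, Krt15 stood at 18.5, 34.1, 34.8 and 24.5 UMIs per 10000 against 6.16, 21.1, 28.8 and 21.7 in keratinocytes, so it was higher outside the rule in every library and the groups overlapped there.

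Krt1 and Krt10, the pair of the suprabasal layers, were high in a single library. Krt1 stood at 4.39, 37.9, 17.1 and 273 CPM, and Krt10 at 32.4, 41.8, 16.5 and 370.1 CPM. Injected 2 was the highest for both, injected 1 was the lowest for Krt10 and second lowest for Krt1, and the groups overlapped. The log2 changes were 2.77 (SE 1.51) for Krt1 and 2.38 (SE 1.29) for Krt10, each with an adjusted p of 0.767 by edgeR's quasi-likelihood test. Without injected 2 they were -0.31 and -1.17.

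The same library was high in cells that the rule did not choose. In epithelial barcodes under the threshold Krt1 stood at 0.076, 1.53, 0.245 and 9.21 UMIs per 10000 and Krt10 at 0.201, 2.34, 0.923 and 10.8. In empty droplets, which carry free RNA of the whole suspension, Krt1 stood at 0.032, 0.400, 0.175 and 3.39 and Krt10 at 0.186, 0.564, 0.116 and 4.63. Injected 2 was the highest of the 4 in each of these sets.

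The ratio of suprabasal to basal keratins, taken as the log2 of Krt1 plus Krt10 UMIs over Krt5 plus Krt14 UMIs in keratinocytes, was -7.99, -6.86, -8.09 and -3.95. The groups overlapped, since the injected libraries were the lowest and the highest of the 4. The group means differed by 1.40 (-6.02 ± 2.93 against -7.42 ± 0.80, SD, n = 2 each). Krt5 and Krt14 also chose the cells, so the ratio is a description with no test. Without injected 2 the difference was -0.67.

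Of the wound-induced keratins, Krt16, a type I chain that pairs with Krt6a at the wound edge, stood at 58.5, 57.9, 31.8 and 42.5 CPM. Both injected libraries lay under both uninjected ones. The log2 change was -0.65 (SE 0.19; means 37.1 ± 7.61 against 58.2 ± 0.43, SD, n = 2 libraries each), with an unadjusted p of 0.0188 and an adjusted p of 0.767 by edgeR's quasi-likelihood test. As the groups did not overlap, leaving out 1 library could hardly change the sign, and the log2 change then lay between -0.87 and -0.45. In the epithelial clusters, which held 7927 of the 8264 keratinocytes, it was -0.62.

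Krt17, the type I chain of follicle cells and wounded epidermis, stood at 22803, 28336, 28376 and 29149 CPM. Uninjected 1 was below the other 3, which lay close together. The log2 change was 0.17 (SE 0.42), with an adjusted p of 0.925 by edgeR's quasi-likelihood test, and it was 0.02 without uninjected 1. Krt16 and Krt17 together took 1.91%, 2.95%, 3.08% and 3.09% of all keratinocyte UMIs, a sum that leaves Krt6a out. The injected libraries were higher by 0.654 percentage points (3.09 ± 0.01 against 2.43 ± 0.74, SD, n = 2 each; exact two-sided permutation p = 0.33, the smallest the design allows), and by 0.133 without uninjected 1. Krt14, Krt16 and Krt17 are close relatives in sequence, and how reads that fit more than 1 of them were counted is not given in the sources used here, so their levels are uncertain to that extent.

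Krt79, the chain of follicle canal cells, stood at 23.1, 62.2, 41.1 and 72.1 CPM in keratinocytes, and the groups overlapped. The log2 change was 0.41 (SE 0.52), with an adjusted p of 0.852 by edgeR's quasi-likelihood test. It was -0.14 without uninjected 1 and -0.48 where the threshold on Krt5 plus Krt14 was 1%. Most Krt79 lay outside the rule: keratinocytes held 17.0%, 30.7%, 24.2% and 14.4% of the libraries' Krt79 UMIs, while the epithelial clusters held 97.8%, 98.2%, 95.6% and 95.9%. In the epithelial barcodes under the threshold its level was 2.04, 6.04, 4.72 and 11.5 UMIs per 10000, highest in injected 2.

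**Figure D2:**
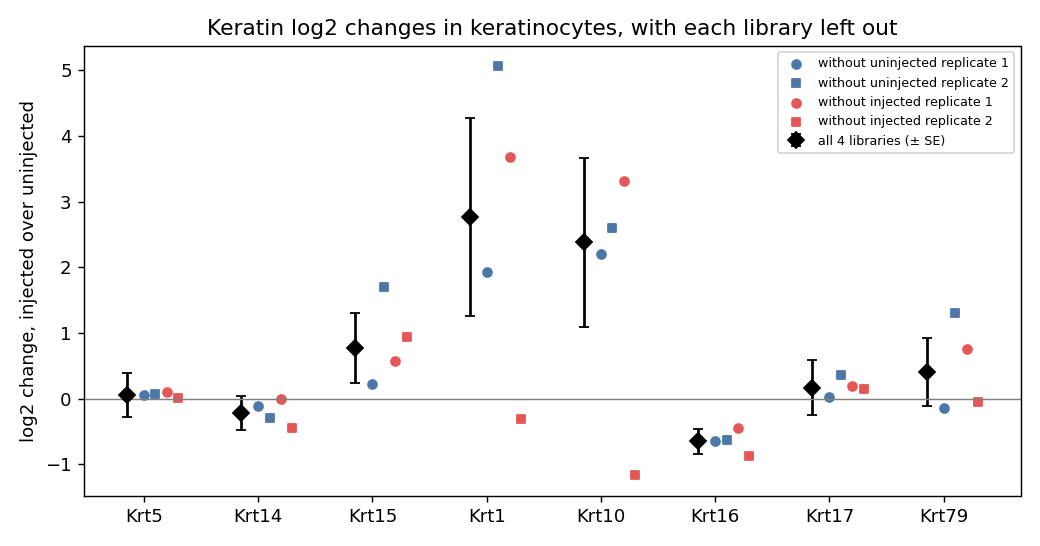
Black diamonds give each keratin's log2 change, injected over uninjected (y axis), with its SE, and coloured points give the value with 1 library left out. Krt1 and Krt10 fall from 2.77 and 2.38 to -0.31 and -1.17 without injected 2, and Krt16 stays between -0.87 and -0.45.

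Across the epithelial clusters, which were made without keratin genes, the keratins fell into different places. Cluster 6, whose leading genes Krtdap, Sprr1a, Ly6d and Sbsn are known from differentiating keratinocytes, held the highest level of Krt10, Krt16 and Krt79 of the 8 clusters in each of the 4 libraries, and of Krt1 in 3 of them. In uninjected 1, Krt1 stood at 0.205 UMIs per 10000 in cluster 15 and 0.204 in cluster 6. Krt15 was highest in clusters 7 (led by Postn, Cxcl14 and Col17a1) and 15 (with Sbsn and Epcam among its leading genes). Krt5 and Krt17 were spread over all clusters apart from cluster 3, a cluster of low depth with a median mitochondrial share of 20.2%, where both were lowest.

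In cluster 6, Krt1 stood at 0.204, 2.98, 1.53 and 20.5 UMIs per 10000, and Krt10 at 0.807, 3.77, 3.53 and 26.8. Injected 2 was thus the highest within the cluster too, which made up 12.9%, 14.8%, 5.29% and 16.0% of epithelial barcodes. Krt79 stood at 3.21, 7.49, 14.02 and 15.5 in cluster 6, where both injected libraries were above both uninjected ones; this was noticed after the values were seen and was not tested. Krt16 stood at 1.37, 1.92, 1.86 and 1.31 there, and the groups overlapped. The lower Krt16 of all keratinocytes of injected 1 went with a small cluster 6, of 161 barcodes against 477 to 525 in the other libraries, whose part in it was not tested.

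In cluster 7, Krt15 stood at 65.1, 103, 125 and 87.9 UMIs per 10000, and in cluster 15 at 65.4, 152, 186 and 141. Uninjected 1 was the lowest and injected 1 the highest in both clusters, and the groups overlapped. Cluster 10, led by Fst, Fgfbp1 and Aqp3, held the next highest Krt79 after cluster 6 in 3 libraries, at 1.37, 0.887, 1.42 and 1.76.

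**Figure D3:**
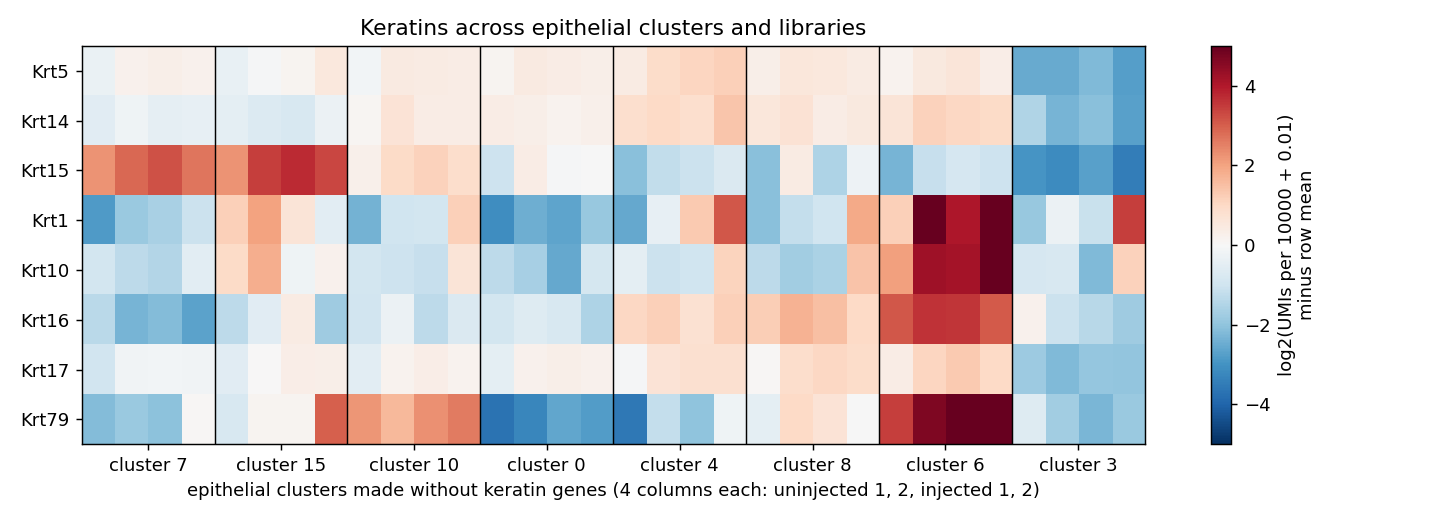
Rows are the 8 keratins and columns the 8 epithelial clusters with 4 libraries each, and the colour is log2(UMIs per 10000 + 0.01) minus the row's mean. Krt1, Krt10, Krt16 and Krt79 are red in cluster 6, and Krt15 in clusters 7 and 15. Krt5 and Krt17 are lowest in cluster 3. Outside cluster 3, Krt5 ranges from 40.4 to 117 UMIs per 10000 and Krt17 from 97.2 to 465.

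The keratins also differed in how evenly they were spread over cells. The 1% of epithelial barcodes with the most UMIs of a gene held 5.13% to 6.07% of the Krt5 UMIs and 5.33% to 6.38% of the Krt17 UMIs. They held 61.2% to 92.9% of the Krt1 UMIs, 53.4% to 82.6% of the Krt10 UMIs and 50.4% to 78.5% of the Krt79 UMIs. A single barcode held up to 999 Krt1 UMIs and up to 1340 Krt10 UMIs, both in injected 2.

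Barcodes rich in a keratin were counted with thresholds chosen after the values were seen, so the counts are a description. Those with Krt1 plus Krt10 at 0.5% of UMIs or more numbered 3 of 4056 epithelial barcodes in uninjected 1, 16 of 3226 in uninjected 2, 7 of 3044 in injected 1 and 103 of 2987 in injected 2. The last is 3.45% (95% Wilson interval 2.85 to 4.17, counting error only) against at most 0.496% in the others, and 97 of the 103 lay in cluster 6. In those of injected 2, Krt1 stood at 93.6 and Krt10 at 115 UMIs per 10000, with Krt5 still at 58.2 and Krt16 at 1.63. Barcodes with Krt15 at 1% or more made up 5.399%, 14.3%, 17.4% and 11.3% of epithelial barcodes, lowest in uninjected 1, and the groups overlapped.

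Barcodes with Krt79 at 0.1% or more made up 1.63%, 2.98%, 1.94% and 5.49%, and most lay in cluster 6 in every library. Of the 164 in injected 2, 31 met the keratinocyte rule, and the Krt5 level over all 164 was 31.6 UMIs per 10000. Krt16-rich barcodes (0.05% or more) numbered 35, 50, 19 and 32. These held Krt79 at 0.64, 2.21, 0.05 and 3.91 UMIs per 10000, against 0.778, 1.74, 1.44 and 3.80 in all epithelial barcodes. The Krt79-rich barcodes held Krt16 at 0.34, 0.71, 0.63 and 0.26, against 0.449, 0.574, 0.308 and 0.431. Both comparisons were mixed in direction over the libraries, and both sets lay mostly in cluster 6. Barcodes with Krt17 at 4% or more made up 1.21% in uninjected 1 and 13.2%, 12.5% and 15.4% in the others.

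**Figure D4:**
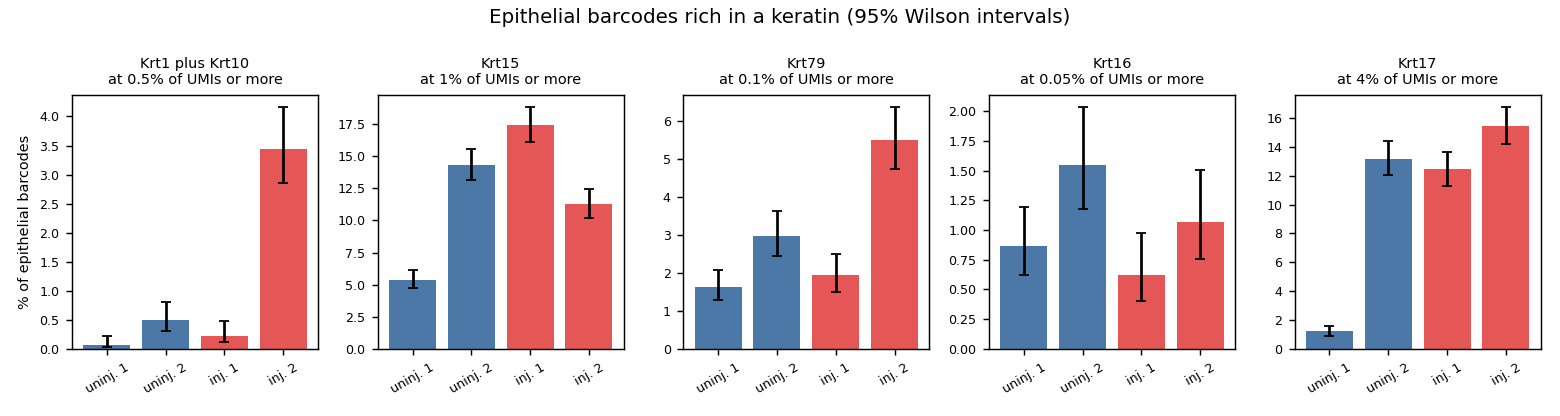
Bars give the percent of epithelial barcodes (y axis from 0) in each library (x axis, blue uninjected, red injected) that are rich in the named keratin, with 95% Wilson intervals. Barcodes rich in Krt1 plus Krt10 reach 3.45% in injected 2 and at most 0.496% elsewhere, and Krt17-rich barcodes are fewest in uninjected 1.

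To compare detection between cells of different depth, each barcode was thinned to 1000 UMIs. In thinned epithelial barcodes, Krt10 was detected in 42.9%, 43.1%, 37.5% and 60.5% of those with a Krt1 UMI and in 1.19%, 1.57%, 0.93% and 3.40% of those without. Barcodes with a Krt1 UMI numbered 14, 51, 24 and 162. Krt1 and Krt10 were thus detected together in every library, whatever their level. Krt16 was detected in 0.60%, 1.11%, 0.80% and 1.09% of barcodes with a Krt15 UMI and in 3.70%, 5.34%, 2.69% and 4.49% of those without. Krt15 and Krt16 were thus seen apart in every library. Krt79 was detected in 3.85%, 2.88%, 3.92% and 4.76% of barcodes with a Krt16 UMI. Of those without, 2.58%, 3.81%, 2.84% and 7.48% held Krt79, so the direction differed between libraries.

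Over 32 units of cluster and library, the Pearson correlation of log2(CPM + 1) was 0.91 for Krt5 with Krt17, 0.91 for Krt1 with Krt10, 0.91 for Krt5 with Krt14, 0.89 for Krt14 with Krt17 and -0.43 for Krt15 with Krt16. High values were thus not limited to the partner pairs. The correlations are descriptions, since units of 1 library share its depth and composition. The units also included those of cluster 3, the cluster of low depth. There Krt5, Krt14 and Krt17 were each lower than in any unit of the other clusters. No correlation was computed without cluster 3, so its part in the values here and below was not tested. The non-keratin genes most like each keratin by Pearson correlation were Gltp (0.83) and Ovol1 (0.81) for Krt1, and AABR07028446.1 (0.82) and Gltp (0.80) for Krt10. Gltp is a glycolipid transfer protein and Ovol1 a zinc finger transcription factor of epidermis. Krt15 was most like Gnl3 (0.95), a nucleolar GTPase, and Myc (0.94), a growth-promoting transcription factor. Krt16 was most like Rbp2 (0.91), a retinol-binding protein, and Trex2 (0.90), a DNA exonuclease. Krt79 was most like Rdh12 (0.85), a retinol dehydrogenase, and Fabp5 (0.85), a fatty acid-binding protein. Krt5 went with Tagln2 (0.99) and Rps2 (0.98), Krt14 with Atp5f1d (0.96) and Dpm2 (0.95), and Krt17 with Cdc37 (0.98) and Psmd8 (0.97).

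Outside the epithelium the keratins were at low levels or had no UMI. Krt16 had 0 UMIs in mast-like barcodes of all 4 libraries, and Krt1 and Krt10 had 0 in neutrophil-like barcodes of injected 1. The mast-like barcodes held only 98567 to 179159 UMIs a library, so a low level of Krt16 there could go unseen. In neutrophil-like barcodes Krt5 stood at 6.94, 2.55, 2.25 and 2.37 UMIs per 10000 and Krt17 at 18.4, 10.9, 8.52 and 10.8. After thinning, a Krt17 UMI was found in 81.5%, 64.8%, 54.9% and 65.6% of neutrophil-like barcodes, against at least 99.8% of keratinocytes in each library, so most barcodes of either class held one. Unthinned, the shares were 88.6%, 79.4%, 68.7% and 79.2% at median depths of 1210 to 1471 UMIs. The ratio of Krt17 to Krt5 UMIs in these neutrophil-like barcodes was 2.66, 4.26, 3.79 and 4.56, close to that of empty droplets in the same libraries, at 2.72, 3.93, 3.67 and 4.96.

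Of the 3 classes whose proportions were set beside those of free RNA (neutrophil-like, fibroblast-like and mast-like), 2 differed. In fibroblast-like barcodes, Krt10 came to 6.76, 15.0, 4.55 and 9.34 UMIs per 100 Krt5 UMIs (112, 357, 147 and 329 Krt10 UMIs), against 0.334, 1.01, 0.232 and 6.68 in empty droplets. The fibroblast-like value was the higher in every library, and by the least in injected 2. Their Krt10 level was 0.144, 0.179, 0.063 and 0.227 UMIs per 10000, and 1.12%, 1.41%, 0.67% and 1.47% of them held a Krt10 UMI after thinning, 20.0%, 23.1%, 11.4% and 23.5% before it. In mast-like barcodes, of which 33 to 47 a library entered, Krt79 stood at 0.507, 0.782, 1.56 and 0.733 UMIs per 10000. These rest on 5, 9, 28 and 12 Krt79 UMIs beside 18, 70, 14 and 59 Krt5 UMIs, whereas empty droplets held 0.714, 2.19, 1.23 and 4.06 Krt79 UMIs per 100 Krt5 UMIs.

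**Figure D5:**
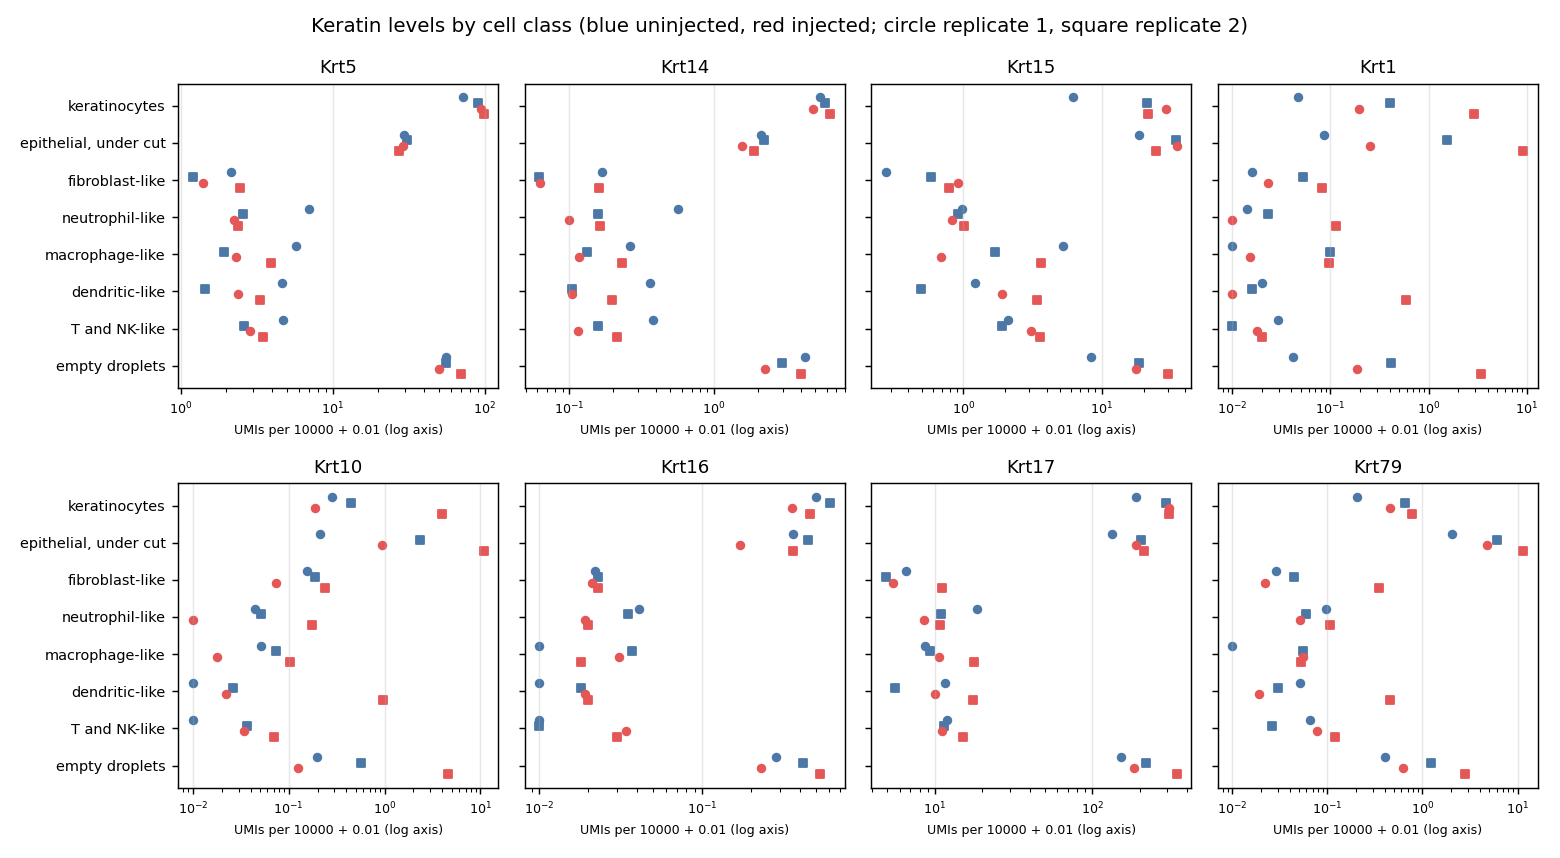
Each panel plots 1 keratin's UMIs per 10000 plus 0.01 (x axis, log scale) in 8 classes (y axis) for the 4 libraries, blue uninjected and red injected, circles replicate 1 and squares replicate 2. Empty droplets lie near the keratinocytes for most keratins, Krt1 and Krt10 as well as Krt5 and Krt17. Krt79 is highest in epithelial barcodes under the threshold, and injected 2 leads for Krt1 and Krt10 in epithelial barcodes and empty droplets.

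Genes that regulate, anchor or accompany keratins were read from the same comparison in 4 lists, and 0 genes of any list were called, beside 0% of all genes. Over all 14171 genes, 7061 had a log2 change above 0 and 7093 below, and 681 an unadjusted p under 0.05. Of 20 keratin regulators tested, 14 had a log2 change above 0 and 6 below, with a median of 0.07 and 0 at an unadjusted p under 0.05 by edgeR's quasi-likelihood test. Junb and Jun, subunits of the AP-1 factor, had log2 changes of 0.40 (SE 0.29) and 0.43 (SE 0.24), and Cebpb, a factor of differentiating keratinocytes, had -0.53 (SE 0.47). Of 22 filament partners, the plaque and adhesion proteins to which keratins attach, 9 were above and 13 below 0, with a median of -0.03 and 1 (Dsc2) at an unadjusted p under 0.05. Dsp, the desmosomal linker of keratin filaments, stood at 1142, 1252, 1124 and 1289 CPM, and Dsc3 and Col17a1, a desmosomal cadherin and a hemidesmosomal collagen, had log2 changes of -0.09 (SE 0.25) and 0.12 (SE 0.26).

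Of 15 cornified and barrier genes tested, 7 were above and 8 below 0, with a median log2 change of -0.28 and 3 (Sprr1b, Tgm3 and Aloxe3) at an unadjusted p under 0.05. Sbsn and Sprr1a, secreted and cornified envelope proteins that led cluster 6, stood at 841, 462, 241 and 429 CPM and at 785, 406, 228 and 359 CPM. Both were highest in uninjected 1 and lowest in injected 1. Ly6d, Krtdap and Lgals7, also leading genes of cluster 6, are in the list of epithelial markers. Ly6d stood at 2.70, 1.75, 0.884 and 4.14 UMIs per 10000 and was highest in injected 2. Krtdap stood at 13.5, 3.65, 1.63 and 5.08 and Lgals7 at 90.6, 30.4, 20.8 and 27.6. Krtdap and Lgals7 were thus highest in uninjected 1 and lowest in injected 1, as Sbsn and Sprr1a were. Dmkn, another secreted epidermal protein, had a log2 change of -0.58 (SE 0.39). DESeq2 called 1 gene of this list, Tgm3, a transglutaminase of the cornified envelope, at a log2 change of 2.89 with an adjusted p of 0.0272 (0.767 by edgeR). Tgm3 stood at 1.25, 2.12, 3.58 and 21.3 CPM, highest in injected 2, as Krt1 and Krt10 were.

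Of 24 barrier alarm genes, which keratinocytes release or raise on injury, 6 were above and 18 below 0, with a median of -0.50 and 3 (Sprr1b, Lcn2 and Il1b) at an unadjusted p under 0.05. Of these, Sprr1b, a cornified envelope protein, is in both lists. S100a6 stood at 16160, 2851, 2259 and 2347 CPM and S100a10 at 6816, 2613, 2209 and 2263 CPM. Both genes were highest in uninjected 1, the library that stood apart. Cxcl1, a chemokine for neutrophils, stood at 2654, 1655, 2174 and 2107 CPM with a log2 change of -0.01 (SE 0.34). DESeq2 called 1 gene of this list, Lcn2, an iron-binding antimicrobial protein, at a log2 change of 0.99 with an adjusted p of 0.0491 (0.767 by edgeR). Lcn2 stood at 17.0, 14.3, 31.4 and 30.2 CPM, higher in both injected libraries. It is also a neutrophil marker and was among the leading genes of the fibroblast-like cluster. The summed markers of other cell types, at 0.487, 2.03, 2.11 and 3.10 UMIs per 10000, were higher in both injected libraries too, and their part in the Lcn2 values was not tested.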

How the data were processed

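UMI counts, deposited for every barcode, came from Cell Ranger, as version 7.2.0 per the file headers and as version 5.0.1 per the submitters' processing notes. Neither the assembly nor the gene models behind them are stated in the labels or headers. Barcodes with 1000 or more UMIs were kept (7996, 9317, 10218 and 6289 a library), with no filter on doublets in the values given first. Barcodes ranked 45000 to 90000 by UMIs served as empty droplets. Clustering used scanpy 1.11.5 (2000 variable genes, 30 components, 15 neighbours, Leiden resolution 1.0, no integration), with 47 keratin genes left out, and a cluster took a class name from listed markers. A marker shared between lists marked no class, a rule set after the clusters were seen. UMI sums per library were tested with edgeR 4.0.16 (TMM, filterByExpr, quasi-likelihood test), which was checked on simulated data. DESeq2 1.42.0 served as an alternative and was not checked in that way. CPM are relative to TMM-scaled totals. Log2 changes are edgeR's.

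The genes named are the keratins listed, the other keratins with 100 or more UMIs in keratinocytes (the 5 with the most by value), the 3 of highest mean CPM in each partner list, and the 2 genes most like each keratin. List genes called by an alternative are named too. Alternatives changed the normalisation, the low-count filter, the definition of keratinocytes and the libraries used. The members and lists were chosen with earlier results of these data known. UMIs are not scaled for gene length, so levels are compared within a gene.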

Additional observations from a re-analysis of the deposited data

How the results depend on the processing

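With all libraries kept, 71 of 72 keratin log2 changes kept the sign of the value in the report and 0 passed the threshold. The exception was Krt79, at -0.476 with Krt5 plus Krt14 at 1% or more. These settings refit the same libraries, and the values include Krt5 and Krt14, which chose the cells. The agreement in sign therefore says nothing on how libraries differ. The count of genes called was 42 with DESeq2 and 2 with no filter on low counts, and with 1 library left out it ranged from 0 to 624. The 624, of which 61 were higher and 563 lower, came without uninjected 2, where 1 keratin (Krt15, 1.694) and 4 list genes (S100a6, S100a10, Sfn and Defb3, all lower) were called. DESeq2 called 2 list genes. With 1 library left out, keratins called ranged from 0 to 1 and list genes from 0 to 4.

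Leaving out 1 library gave log2 changes of -0.313 to 5.061 for Krt1, -1.166 to 3.321 for Krt10, 0.216 to 1.694 for Krt15 and -0.137 to 1.31 for Krt79, where the value without injected 2 was -0.053. The suprabasal ratio ranged from -0.668 to 3.475, and the share of Krt16 plus Krt17 from 0.133 to 1.175 percentage points. Below 0 came Krt1, Krt10 and the ratio without injected 2, and Krt79 without uninjected 1 or injected 2. The cause was not tested.

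Unscaled library sizes moved the median of all genes from -0.001 to 0.189. The fit with a replicate block called 0 genes and 0 keratins (Krt10 1.102, Krt1 2.421), with 576 genes at an unadjusted p under 0.05 by edgeR. Libraries of equal number did not deviate together (correlation -0.206 over 7358 genes), and a crossed pairing, added after seeing the data, called 0, with 941 at that p.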

Other observations

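Keratins beyond those followed in the report were few by UMIs: the 8 keratins made up 99.0%, 99.1%, 99.0% and 99.1% of all keratin UMIs of keratinocytes. All keratins together took 2.79%, 4.18%, 4.41% and 4.47% of keratinocyte UMIs, lowest in uninjected 1. Of 39 other keratins listed, 12 had 100 or more UMIs there, and 0 were called by edgeR's quasi-likelihood test. Krt8, a chain of simple epithelia, stood at 1.24, 1.53, 1.95 and 1.54 UMIs per 10000, with uninjected 2 and injected 2 nearly equal. Krt75, a follicle companion layer chain, stood at 0.169, 0.217, 0.251 and 0.283, with both injected libraries above both uninjected ones and a log2 change of 0.28 (SE 0.16). Krt24 stood at 0.009, 0.047, 0.126 and 0.127, with a log2 change of 2.06 (SE 0.64), an unadjusted p of 0.0222 and an adjusted p of 0.767 by edgeR's quasi-likelihood test.

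Krt71 and Krt42 lie next to Krt5 and Krt17 in the gene order of RefSeq's GRCr8. Krt71, known from the inner root sheath of the hair follicle, stood at 0.937, 1.33, 1.25 and 1.10 UMIs per 10000 in keratinocytes, which was 1.29%, 1.47%, 1.33% and 1.11% of the Krt5 UMIs. Krt42 stood at 0.353, 0.532, 0.701 and 0.574, which was 0.185%, 0.180%, 0.228% and 0.186% of the Krt17 UMIs. Whether reads of the neighbour were counted to them was not tested.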
